A study of Mus musculus with 221 samples.

Results

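The transcripts of 7 genes that set the methylation and stability of cytosolic tRNA were measured in single early 2-cell mouse embryos whose fathers had eaten a high-fat diet (HFD) or, as controls, one low in fat (LFD). They were chosen by name from the known enzymes: the 5-methylcytosine writers Trdmt1 (also called Dnmt2) and Nsun2, the subunits Trmt6 and Trmt61a of the 1-methyladenosine writer, the demethylases Alkbh1 and Alkbh3, and the ribonuclease inhibitor Rnh1. These are 7 of the 55291 genes in the count table, and all 7 were among the 14820 genes with enough counts to be tested.

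The embryos came from in vitro fertilization and were collected as single early 2-cell embryos, 99 from LFD males and 23 more than that from HFD males. All embryos had a C57BL/6N nuclear genome and mitochondrial DNA of the Staudach (ST) line from the oocyte, and the diet of the sire was the labelled difference between the groups. Per the study's methods, frozen-thawed sperm of a few young adult males per diet was used, each fertilization date paired an HFD with an LFD male, and mothers ate no test diet. Sire, date and embryo sex are not in the labels, so embryos of 1 sire were treated as separate replicates, and an effect of diet cannot be told apart from one of the few sires. The study sexed embryos by their Y-linked transcripts. The log2 of summed CPM of 7 Y-linked genes, with 0.5 added, had a median of 5.43 in HFD and 3.57 in LFD embryos. Embryos were not split by sex here. Total counts ran from 1937251 to 17246791 per embryo (median 5706066), and 8 embryos, 4 of each diet, had under 15000 genes with a count.

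Methyl groups on tRNA can protect it from cleavage and tune how well it is read by the ribosome. TRDMT1 methylates a cytosine in the anticodon loop of a small set of tRNAs, and NSUN2 methylates cytosines of the variable region in many. TRMT6 and TRMT61A form one enzyme that methylates an adenosine of the T loop, in which TRMT61A holds the catalytic site and TRMT6 helps to bind the tRNA; ALKBH1 and ALKBH3 can remove that mark. Ribonucleases of the angiogenin family cut tRNA into fragments, and RNH1 binds and blocks them. Fragments of tRNA are abundant in mature sperm, and mouse work has tied Dnmt2 to the passing on of paternal diet effects. The libraries copy polyadenylated RNA, so the values below are levels of the messenger RNAs of these enzymes in the embryo, not of tRNA, its fragments or its methylation. Because a library pools the RNA of a whole embryo, with any cell attached to it, fewer cells of a type and less RNA per cell cannot be told apart.

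Of the 7 genes, 6 matched a RefSeq promoter window (build GRCm38.p6), and Trmt6 was not among the entries used here. The windows are shown because 5 of the 6 genes (Nsun2, Trmt61a, Alkbh1, Alkbh3 and Rnh1) share a 7-base motif, CCGGAAG or its reverse complement CTTCCGG, of the kind bound by ETS factors. The motif was chosen after the sequences had been read, both strands were searched, and overlap with other motifs was not considered. It occurs in 8.86% of all 32851 windows of the same 300 bases (250 before to 50 after the start) and in 18.9% of the 11378 windows with at least 15 CpG dinucleotides. Trdmt1 does not hold these letters in its window, and of the 3 start sites listed for Rnh1 the most upstream one does. The 250 bases before the start are given 5′ to 3′ on the coding strand for the 3 genes whose motif lies wholly in that stretch, with the motif in capitals; a match is a string of letters, not a measured binding site. The stretches are chr7:141172852-141173101 for Rnh1, chr12:87443840-87444089 for Alkbh1 and chr2:94010731-94010980 for Alkbh3, all on the minus strand.
Rnh1: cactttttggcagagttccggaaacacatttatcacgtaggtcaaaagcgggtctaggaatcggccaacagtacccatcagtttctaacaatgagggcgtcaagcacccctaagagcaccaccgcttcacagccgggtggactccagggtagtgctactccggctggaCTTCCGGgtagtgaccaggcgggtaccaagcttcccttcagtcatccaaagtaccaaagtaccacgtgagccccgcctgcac
Alkbh1: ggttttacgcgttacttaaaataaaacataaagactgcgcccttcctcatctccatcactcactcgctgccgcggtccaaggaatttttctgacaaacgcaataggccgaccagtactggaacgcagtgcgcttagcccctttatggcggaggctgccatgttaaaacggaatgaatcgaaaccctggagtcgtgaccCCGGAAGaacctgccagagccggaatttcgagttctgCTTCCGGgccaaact
Alkbh3: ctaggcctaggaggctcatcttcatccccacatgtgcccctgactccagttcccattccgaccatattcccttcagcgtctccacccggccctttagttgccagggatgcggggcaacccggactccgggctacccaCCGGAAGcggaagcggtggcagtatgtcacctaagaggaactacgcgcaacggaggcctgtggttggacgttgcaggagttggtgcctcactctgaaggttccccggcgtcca

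In the count table (GRCm38), Trdmt1 lies at chromosome 2, 13509014 to 13544668, Alkbh3 at 2, 93980550 to 94010807, Trmt6 at 2, 132804207 to 132816055, and Rnh1 at 7, 141160326 to 141172857, all on the minus strand. Alkbh1 lies at chromosome 12, 87425840 to 87444017 (minus), Trmt61a at 12, 111678105 to 111683902 (plus), and Nsun2 at 13, 69533746 to 69635780 (plus). The counts were made with a reverse-strand setting on a protocol that does not mark strand, so reads from genes that share exon bases on opposite strands cannot be assigned with certainty. Trdmt1, Trmt6, Trmt61a and Rnh1 share no exon base with another gene. Nsun2 shares 469 bases with Gm17108 (chromosome 13, 69610498 to 69614901) and 165 with Tent4a, Alkbh1 shares part of an exon with Slirp, and Alkbh3 shares 85 bases with Alkbh3os1, each on the opposite strand. Alkbh3 also shares 172 bases with Gm27027 on the same strand.

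Levels were compared between the genes as RPKM, computed here from the counts, the exon length and the library total. Nsun2 stood far above the rest, with a mean of 22.2 ± 7.25 RPKM (SD over all embryos), higher than 83.2% of all tested genes. It exceeded the next gene, Trmt6 (3.20 ± 1.72), in all but 2 embryos, by 2.86 ± 0.92 on the log2 scale with 0.1 added to the RPKM. Alkbh1 (2.58 ± 1.26), Trdmt1 (2.28 ± 1.43), Rnh1 (2.16 ± 3.23) and Trmt61a (2.11 ± 2.23) followed. On that scale the mean steps from Trmt6 to Alkbh1 (0.28), from Alkbh1 to Trdmt1 (0.38) and from Trdmt1 to Rnh1 (0.53) were each smaller than their SD over embryos, so single embryos often went against the order. With SEs of 0.07, 0.10 and 0.14 the mean steps lay several SE from 0, whereas that from Rnh1 to Trmt61a (-0.09 ± 0.14, SE) did not. Alkbh3 was lowest at 0.505 ± 0.611 RPKM, above only 5.27% of tested genes, and it was below Trmt61a in 184 embryos, by 1.88 ± 2.17 (SD; SE 0.15). Of the methyltransferase partners, Trmt6 was above Trmt61a by 1.10 ± 0.13 (SE), in 159 embryos.

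**Figure D1:**
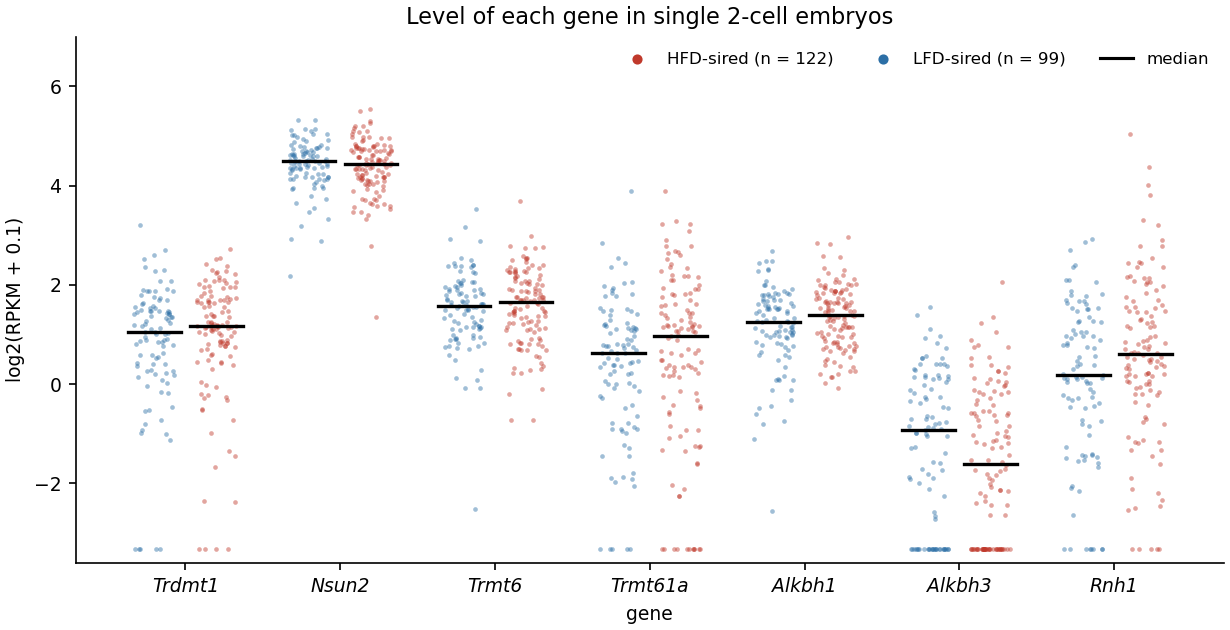
Level of each of the 7 genes in every embryo, as log2 of RPKM plus 0.1 on the vertical axis, with LFD-sired embryos in blue (n = 99) and HFD-sired embryos in red; each point is 1 embryo and the bar is the group median. Nsun2 sits above all others, the points on the lowest line are embryos with no count (67 for Alkbh3), and the groups overlap for every gene.

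The question for each gene was whether its level differed with the diet of the sire. None of the 7 passed the edgeR quasi-likelihood test at a false discovery rate (FDR) of 0.05, where 2.15% of all tested genes did (318 of 14820). At an unadjusted p under 0.05 the count was 3 of 7 (Rnh1, Trmt61a and Alkbh1), beside 13.1% of all tested genes. The median log2 fold change of the 7 genes, HFD over LFD, was 0.15, and that of all tested genes was 0.01; 6 of the 7 values were positive. By DESeq2, 1 of the 6 genes with an adjusted p was past the threshold (Rnh1), where 3.38% of genes were called, and by limma-voom 0 of 7 were, where 2.23% were called.

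Nsun2, which marks many tRNAs and also some messenger RNAs, was the gene measured most precisely. Its level ran from 2.45 to 46.3 RPKM in HFD embryos (median 21.5) and from 4.41 to 39.98 in LFD embryos (median 22.4). The groups lay over each other, and the log2 fold change was 0.01 ± 0.07 (SE; edgeR FDR 0.966). No embryo was without counts, and the coefficient of variation was the smallest of the 7. Trdmt1, the writer on few tRNAs, ran from 0 to 6.51 RPKM in HFD embryos (median 2.15) and from 0 to 9.11 in LFD embryos (median 1.98). Again no group stood apart, with 4 HFD and 5 LFD embryos at 0 and a log2 fold change of 0.15 ± 0.16 (edgeR FDR 0.768).

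The gene most alike Nsun2 across embryos, by Pearson's r of log2 CPM with the diet means taken out (all embryos), was its opposite-strand neighbour Gm17108 (r = 0.85), a gene of no known function that spans the RefSeq start of Nsun2. On log2 of CPM plus 0.5, without normalization factors and with the diet means left in, the value was 0.89. On that scale the other opposite-strand neighbours did not track their partners in this way: r was 0.06 for Tent4a with Nsun2 and 0.13 for Slirp with Alkbh1. The median count of Nsun2 was 719, and how many of these reads belong to the other strand could not be read from the counts. After Gm17108 came Brap (0.65) and Cdk16 (0.61). For the other 6 genes the highest r was lower, from 0.30 for Alkbh3 with Cadps2 to 0.53 for Alkbh1 with Prelid1. Trdmt1 was most like Rad51d (0.47), Rpusd4 (0.46) and Fh1 (0.45), and Trmt6 most like Ppid (0.47), Cog5 (0.43) and Radil (0.43). Trmt61a was most like Tysnd1 (0.45), Mblac2 (0.44) and Irs2 (0.42), and Rnh1 most like Pim3 (0.47), Gm12620 (0.46) and Gm45709 (0.46). After the genes just given for Alkbh3 and Alkbh1 came Rwdd2b (0.30) and Ppcdc (0.29), and Sfswap (0.49) and Lbr (0.48). These are descriptions over libraries that share depth and quality effects.

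Trmt6, the tRNA-binding subunit, ran from 0.508 to 12.8 RPKM in HFD embryos (median 3.06) and from 0.0737 to 11.4 in LFD embryos (median 2.88). The groups overlapped over almost their whole range, and the log2 fold change was 0.08 ± 0.10 (edgeR FDR 0.827). Trmt61a, which holds the catalytic site, was more uneven, from 0 to 14.7 RPKM in both groups, with medians of 1.87 in HFD and 1.44 in LFD embryos. It had no count in 11 HFD and 5 LFD embryos, and 69 HFD embryos lay above the LFD median. Its log2 fold change of 0.45 ± 0.22 did not pass (p = 0.0367, edgeR FDR 0.337) and was 0.27 by limma-voom (FDR 0.69). It was also 0.27 (edgeR FDR 0.733) without 13 HFD embryos that carried more macrophage transcripts than any LFD embryo, described with Rnh1 below; Trmt61a averaged 11.3 ± 9.55 CPM (SD; counts in each 1000000) in those 13, 5.18 ± 5.05 in the other HFD and 4.29 ± 4.56 in LFD embryos. An embryo with 0 counts may hold a level of up to 3 counts, or from 0.174 to 1.55 CPM over the range of depths, which covers counting error only.

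Among the demethylases, Alkbh1 ran from 0.846 to 7.76 RPKM in HFD embryos (median 2.51) and from 0.0698 to 6.34 in LFD embryos (median 2.29). The groups overlapped. When compared range by range over 10 embryo numbers at a time, HFD was higher in 10 of 11 ranges, with log2 differences from -0.01 to 0.76; the ranges are not known batches. Its log2 fold change was 0.20 ± 0.10 (p = 0.0381, edgeR FDR 0.344). Alkbh3, which acts on both tRNA and alkylated nucleic acids, ran from 0 to 4.04 RPKM in HFD (median 0.229) and from 0 to 2.83 in LFD embryos (median 0.425). It was the sole member with a negative value, -0.26 ± 0.29 (edgeR FDR 0.783), and 40 HFD and 27 LFD embryos had no count. The median was 6 counts per embryo.

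Rnh1, whose product holds angiogenin and other secreted ribonucleases inactive, had the largest diet value. It ran from 0 to 84.7 CPM in HFD embryos (median 3.68) and from 0 to 19.6 in LFD embryos (median 2.69), with means of 6.79 ± 10.6 (SD) and 4.13 ± 4.05 (n = 99). The bulk of the groups overlapped, with 80 HFD embryos above the LFD median, while 6 exceeded every LFD embryo. The log2 fold change was 0.74 ± 0.22, just short of the threshold by edgeR (p = 0.00113, FDR 0.0510), past it by DESeq2 (0.74, FDR 0.0211) and not by limma-voom (0.60, FDR 0.22). HFD was higher in 8 of 11 number ranges. Leaving out the embryo with the highest level, HFD embryo 80, gave 0.59 (edgeR FDR 0.151). With the summed Y-linked level as a covariate the log2 fold change was 0.69 (edgeR FDR 0.0950).

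Of the 6 HFD embryos with the most Rnh1, 5 also carried more macrophage transcripts than any LFD embryo. The summed level of 12 macrophage markers, as log2 of summed CPM with 0.5 added, ran from -1.0 to 6.20 in LFD embryos (median 5.30) and from -1.0 to 11.7 in HFD embryos (median 5.25). Csf1r, C1qb and Cd68 accounted for the common level, each with counts in at least 193 embryos. The markers C1qc and Mpeg1 had no count in any LFD embryo but in 10 and 13 HFD embryos, and Tyrobp had counts in 12 HFD embryos and 1 LFD embryo. C1qc and Mpeg1 were the only 2 of the 12 markers at 0 in all LFD embryos. Others were found in both groups: Adgre1 in 11 HFD and 6 LFD embryos, C1qa in 41 and 24, Fcer1g in 50 and 28, and Lyz2 in 77 and 57. Of the 13 HFD embryos above the highest LFD macrophage level, 9 stood apart at 8.06 to 11.7 and had counts for 11 or 12 of the 12 markers. Rnh1 in the 13 ran from 0.781 to 84.7 CPM (median 13.2). Of the 6 HFD embryos above every LFD embryo, 5 were among the 13, at 25.5, 36.2, 41.6, 53.3 and 84.7 CPM. These 5 all belonged to the 9 that stood apart. The others of the 9 stayed below the highest LFD value of 19.6, at 3.05, 8.15, 13.2 and 13.9 CPM. The embryo at 3.05 CPM had counts for all 12 markers and lay below the HFD median of 3.68. In the HFD embryos outside the 13 the Rnh1 mean was 4.88 ± 4.59 CPM, close to the LFD mean, and their highest value was 23.8.

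Without those 13 HFD embryos the diet log2 fold change of Rnh1 was 0.27 ± 0.21 (edgeR FDR 0.735), and with the macrophage level as a covariate it was 0.47 (FDR 0.30). The cut-off is the LFD maximum, so only HFD embryos could be left out. Because 5 of the 6 HFD embryos with the most Rnh1 were among the 13, a lower value without them was built in. Over all embryos Rnh1 rose with the macrophage level at a slope of 0.27 ± 0.05 log2 units per log2 unit (edgeR FDR 0.000131, diet as covariate); 2 of the 7 genes were called, beside 6.94% of all genes tested. The slope of Rnh1 was not called in the remaining embryos, at -0.20 (FDR 0.368) without the 13 and -0.02 (FDR 0.97) in LFD embryos alone. Pearson's r with the macrophage level was 0.30 in HFD embryos (permutation p = 0.00116, adjusted over 4 relations 0.00464) and Spearman's rho only 0.10 (p = 0.296, adjusted 0.296); r without the 2 embryos farthest from the median level was 0.32. In LFD embryos r was 0.13 (permutation p = 0.171, adjusted 0.228, n = 99), rho was -0.11 (p = 0.286, adjusted 0.296), and r without the 2 farthest embryos was -0.11. The second gene, Trmt6, had a slope of -0.10 ± 0.03 (FDR 0.0335), which was -0.25 (FDR 0.000231) without the 13 embryos, where 23.7% of all genes were called, and -0.28 (FDR 0.00729) in LFD embryos alone, where 16.6% were and Alkbh1 also passed (0.44, FDR 0.0376). It missed the threshold with depth covariates (-0.06, FDR 0.385), in HFD embryos alone (-0.06, FDR 0.379) and by limma-voom (-0.10, FDR 0.115). LFD embryo 33 had no count of any macrophage marker (level -1.0) and the fewest genes with a count of all embryos, 11364. It also had the highest Trmt6 level of its group, 61.5 CPM. The macrophage slopes were not fitted without this embryo, so how far those of Trmt6 and Alkbh1 rest on it was not tested.

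**Figure D2:**
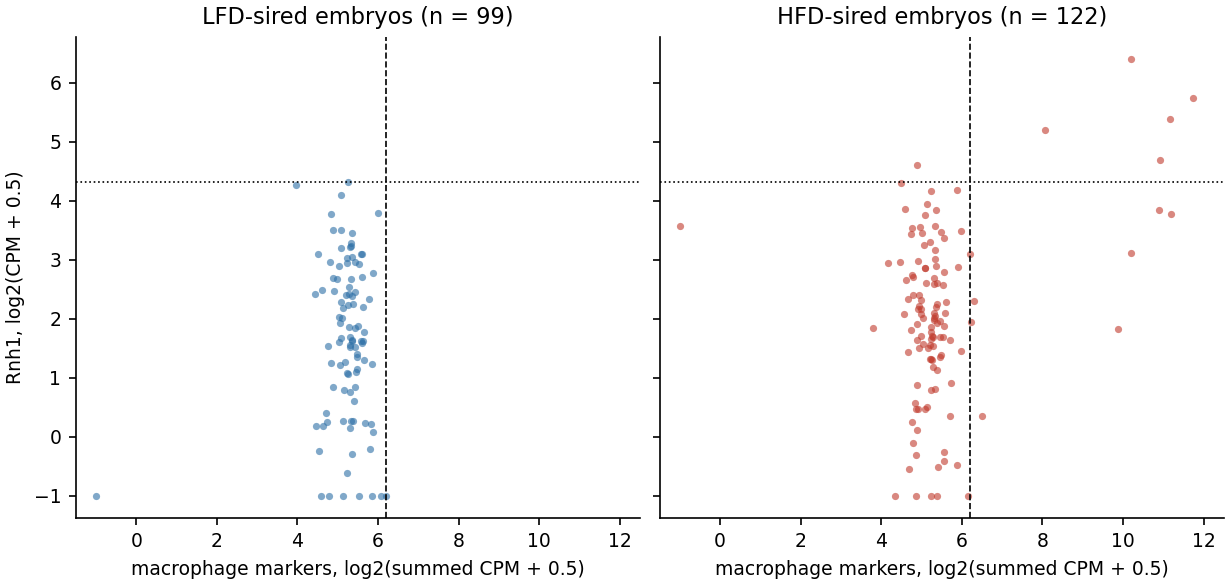
Rnh1 (vertical axis, log2 of CPM plus 0.5) against the summed level of 12 macrophage markers (horizontal axis, log2 of summed CPM plus 0.5) in LFD-sired (left, n = 99) and HFD-sired embryos (right); each point is 1 embryo, the dashed line is the highest macrophage level and the dotted line the highest Rnh1 level among LFD embryos. In the upper right corner, 5 HFD embryos lie above both lines. No LFD embryo can lie there, because the lines are drawn at the LFD maxima.

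**Figure D3:**
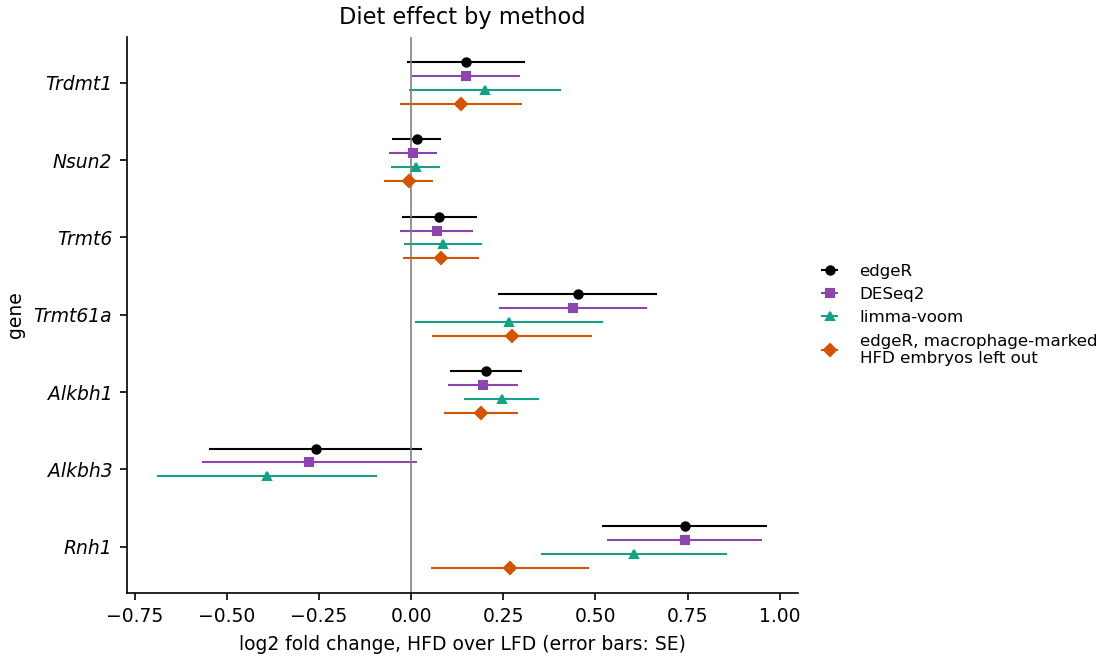
Diet effect on each gene as log2 fold change, HFD over LFD, with SE as error bars, by edgeR, DESeq2, limma-voom and edgeR without the 13 HFD embryos above the highest LFD macrophage level, under which Alkbh3 had too few counts to be tested. The value of Rnh1 fell from 0.74 to 0.27 without those embryos, and that of Nsun2 lay at 0 by every method to within its SE. Only HFD embryos could be left out by this rule, among them 5 of the 6 with the most Rnh1, so the fall was built in.

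A further list, 12 markers of cumulus and granulosa cells, which surround the oocyte, was set beside the genes in the same way. Its summed level ran from 2.21 to 6.27 in LFD (median 4.98) and from 1.596 to 7.83 in HFD embryos (median 5.04). No marker was at 0 in all embryos of a group, but 8 of the 12 had a median of 0 in LFD and 7 in HFD embryos. Amhr2, Cyp19a1, Star and Tnfaip6 had counts in at least 184 embryos, whereas Inha, Inhba, Fst, Ptx3 and Foxl2 had counts in 8 to 17. Rnh1 (slope 0.40, FDR 0.00261), Trmt61a (0.39, FDR 0.0285) and Nsun2 (0.12, FDR 0.0189) rose with it by edgeR, 3 of 7 beside 29.9% of all genes tested. Without the 13 HFD embryos the slopes were 0.31, 0.40 and 0.11, and Trmt6 was also called, at -0.16 (FDR 0.0244), beside 28.3% of all genes. By limma-voom Trmt61a missed the threshold (0.33, FDR 0.10) and Alkbh1 passed it (0.18, FDR 0.0211), beside 31.1% of all genes. The cumulus slopes were not fitted with depth covariates. Over all embryos Rnh1, Trmt61a and Nsun2 had r of 0.33, 0.26 and 0.20 with the number of genes with a count. The lowest cumulus level, 1.596, was that of HFD embryo 48, which had counts for 12015 genes. A part of library quality in these slopes was not tested.

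Whether HFD embryos were more variable than LFD embryos was asked with limma on each embryo's absolute distance from its group median. None of the 7 genes passed, beside 0.0405% of all tested genes (6 of 14820), and 0 of the 7 had an unadjusted p under 0.05, beside 8.01%. The largest value was that of Trmt61a, 0.33 ± 0.20 log2 units more spread in HFD embryos (FDR 0.687), and the lowest that of Alkbh1, -0.13 ± 0.07 (FDR 0.667).

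Since mitochondrial tRNA (mt-tRNA) from sperm is what the series was designed to trace, each gene was tested for a slope on the embryo's summed mt-tRNA level, with diet as a covariate. The study told the sperm part apart by sequence differences between the parental mitochondrial genomes. The summed level holds reads of both origins and does not measure that part. Trmt61a was the 1 gene of 7 called, with a slope of 0.77 ± 0.18 (edgeR FDR 0.000175), where 36.8% of all genes tested were called. A gene called for such a slope was therefore no exception in these libraries. The slope was 1.03 (FDR 0.000285) in LFD embryos alone, where 21.1% of genes were called, and 0.54 (FDR 0.163) in HFD embryos alone, and the test of the difference, which no member passed (0.108% of all genes did), gave -0.49 (FDR 0.92). LFD embryo 26 had the highest mt-tRNA level of all embryos, 10.85, and the highest Trmt61a level of its group, 35.7 CPM; without it the slope was 0.66 (FDR 0.00763; 35.4% of genes called). The slope was 0.76 (FDR 0.000634; 31.5% called) without the 13 HFD embryos.

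The call was lost with mt-Ts1 left out of the level, where the slope of Trmt61a was 0.13 (edgeR FDR 0.551), and limma-voom gave 0.53 (FDR 0.0738) with it. The levels with and without mt-Ts1 are unlike: that of LFD embryo 26 was 10.85 with it and 7.84 without. Without mt-Ts1 the level ran from 6.44 to 8.82 in HFD embryos 31 to 70. It ran from 5.21 to 8.46 in the other HFD embryos and from 4.74 to 7.85 in LFD embryos. Why the slopes differed was not tested. By correlation, Trmt61a and the mt-tRNA level gave r = 0.23 (permutation p = 0.0233, adjusted over 4 relations 0.0466, n = 99) and rho = 0.32 (p = 0.00146, adjusted 0.00584) in LFD embryos, with r = 0.29 without the 2 farthest embryos. In HFD embryos r was 0.02 (p = 0.808, adjusted 0.808, permutation) and rho 0.19 (p = 0.0368, adjusted 0.0736), with r = 0.04 without the 2 farthest. The other 6 genes had slopes between -0.09 and 0.38 and none was called.

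**Figure D4:**
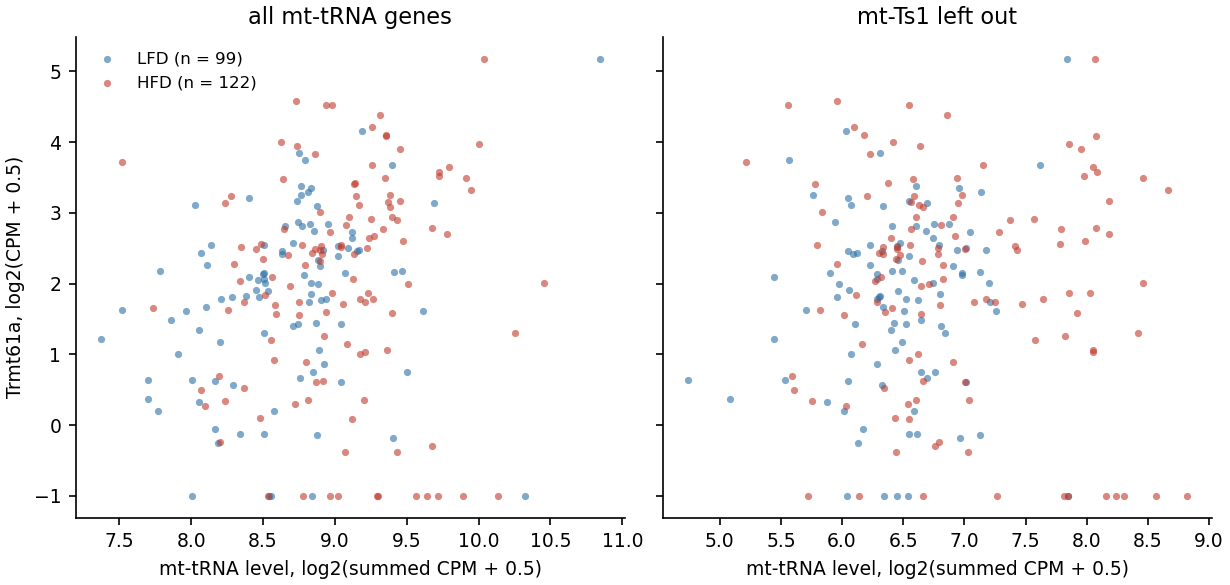
Trmt61a (vertical axis, log2 of CPM plus 0.5) against the summed mt-tRNA level (horizontal axis, log2 of summed CPM plus 0.5), with all mt-tRNA genes on the left and without mt-Ts1 on the right; each point is 1 embryo, LFD in blue (n = 99) and HFD in red. The embryo at the far right of the left panel is LFD embryo 26 at 10.85, and the edgeR slope was 0.77 with mt-Ts1 and 0.13 without it.

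At this stage maternal messages are cleared while the embryonic genome is switched on, so each gene was also tested against a stage level, the log2 difference between 22 genes of the 2-cell stage and 18 maternal genes. None of the 7 was called by edgeR, beside 20.8% of all genes tested; 1 of the 7 had an unadjusted p under 0.05, beside 31.6%. Slopes ran from -0.56 for Alkbh3 to 0.29 for Rnh1. By limma-voom Rnh1 passed, at 1.02 (FDR 0.0378), beside 21.5% of all genes.

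Enzymes that act as partners or on the same mark were compared within each diet, 3 pairs in 2 groups. Trmt6 and Trmt61a, subunits of 1 enzyme, did not rise together: r was -0.27 in LFD (permutation p = 0.00992, adjusted over 6 relations 0.0595, n = 99; rho -0.18, p = 0.0697, adjusted 0.418) and -0.13 in HFD embryos (p = 0.140, adjusted 0.270, permutation; rho -0.09, p = 0.323, adjusted 0.485). Without the 2 embryos farthest from the median, r was -0.18 and -0.12. Without embryos under 15000 genes, r was -0.16 in LFD (permutation p = 0.117, adjusted 0.558, n = 95) and -0.07 in HFD embryos (permutation p = 0.456, adjusted 0.684). LFD embryo 26, with 14707 genes and the highest Trmt61a level of its group, was among those left out. For Trdmt1 with Nsun2, r was 0.12 in LFD and -0.02 in HFD embryos, and for Alkbh1 with Alkbh3 0.18 and -0.11. None of the 6 relations passed after adjustment by either coefficient, and the lowest adjusted permutation p of these 4 was 0.210. Over all 21 pairs of the 7 genes, with diet means taken out, r ran from -0.20 to 0.25 with a median of 0.03.

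Other genes of the tRNA methylation and cleavage machinery were read as named lists. The lists were chosen with earlier results of these data known, and the genes named from them were picked by their diet p-value. Of the cytosolic tRNA methyltransferases, 25 of 28 were tested and 0 were called by diet, beside 2.15% of all tested genes. Whether any of the lists differed from that share was not tested. The median log2 fold change of the cytosolic methyltransferases was 0.08. The values nearest the threshold were those of Trmt13, which methylates the acceptor stem (0.29 ± 0.11, edgeR FDR 0.157), and Trmt11, a guanosine methyltransferase (0.15 ± 0.07, FDR 0.321). Of the 6 mitochondrial tRNA methyltransferases, none was called and the median was 0.27. Trmt10c, a subunit of mitochondrial RNase P, had 0.22 ± 0.07 (FDR 0.0541) and Trmt61b, the mitochondrial counterpart of Trmt61a, 0.37 ± 0.17 (FDR 0.279).

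Among the relatives of the NSUN and ALKBH enzymes, 1 of 12 tested genes was called, beside 2.15% of all tested genes. This gene, Alkbh5, which removes N6-methyladenosine from messenger RNA, fell by 0.21 ± 0.05 on the log2 scale in HFD embryos (edgeR FDR 0.00777). It kept its direction under all 17 alternatives and passed under 14 of them; it did not pass without HFD embryos 31 to 70 (-0.18, FDR 0.0879), with number blocks as a fixed term (-0.13, FDR 0.117) or with each embryo number as a block, whose value stands with the other processing alternatives. Nsun5, a ribosomal RNA methyltransferase, had 0.12 ± 0.09 and Alkbh8, a writer of wobble uridine marks, 0.18 ± 0.15 (FDR 0.626 and 0.674). Of the genes of tRNA cleavage and end processing, 15 of 26 in the table were tested and 1 was called, beside the same 2.15%. This was Trnt1, which adds the CCA end to tRNA and rose by 0.19 ± 0.06 (edgeR FDR 0.0370). It passed under 13 of 17 alternatives; the call was lost without HFD embryo 80 (0.18, FDR 0.0525), without HFD embryos 31 to 70 (0.13, FDR 0.330), with RLE size factors (FDR 0.0521) and with number blocks within each diet as a random effect (FDR 0.181). Rnaset2b had 0.45 ± 0.18 (FDR 0.186) and the RNA kinase Clp1 0.15 ± 0.07 (FDR 0.292). Of 34 other tRNA modification enzymes in the table, 32 were tested, none was called and the median was 0.04. The nearest were Yrdc, which makes the threonyl-carbamoyl mark (-0.35 ± 0.14, FDR 0.200), and Elp5 of the elongator complex (0.10 ± 0.05, FDR 0.329).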

How the data were processed

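Raw read counts per gene were deposited by the authors for 122 HFD and 99 LFD embryos, each made into 1 Smart-seq2 library. Per the labels and file headers, adaptors were removed with Trim Galore 0.6.6, reads were aligned with STAR 2.7.10a to GRCm38 carrying ST mitochondrial DNA, and featureCounts 2.0.3 counted exons of Ensembl 102 with strand setting 2. Both reads of a pair were counted separately (65.8% of counts above 0 were even). The 55291 genes are given by symbol, and no sample column was left unused.

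Diet was tested with edgeR 4.0.16 (quasi-likelihood, TMM, filterByExpr; R 4.3.3), with limma 3.58.1 and DESeq2 1.42.0 as alternatives, and Benjamini-Hochberg adjustment over all tested genes at 0.05. Slopes on summed levels used edgeR with diet as covariate, and correlations 100000 2-sided permutations. Scripts for tests across genes were tested on simulated data. Other steps used Python 3.11.15 (matplotlib 3.10.9, scipy 1.17.1, numpy 2.4.6, pandas 2.3.3). The study gives no sire, date or sex per embryo in the labels, and reads amplified by PCR without molecular identifiers are no measure of independent molecules. Nothing in the labels says which embryos share a sire, so p-values measure the spread between embryos only.

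The genes and lists were chosen with earlier results of these data known. Named genes are all 7 members, of each other tRNA list those called by diet and the 2 others with the smallest p, and per member the 3 genes of highest correlation. Slopes on the macrophage and cumulus levels, number blocks within each diet, the fits without the 13 HFD embryos and those without HFD embryo 80 or LFD embryo 26 were chosen after seeing the data.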

Additional observations from a re-analysis of the deposited data

How the results depend on the processing

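Of 370 values recomputed under an alternative, 317 were classed as unchanged. For effects and correlations this meant the same direction and side of the threshold. For counts of called genes a small change was allowed, such as from 3 to 4 on the cumulus level. Levels of the genes had only to move by less than their SD over embryos, a loose rule, and leave-one-out ratios to keep their sign. The count of the 7 genes called by diet was 0 and became 1, always Rnh1, with no low-count filter (FDR 0.0136), without embryos under 15000 genes (0.0381), with depth covariates (0.0246) and by DESeq2 (0.0211). Embryo numbers did not pair the diets: over 94 shared numbers the correlation of deviations had a median of 0.00494, and 0 of these pairs correlated best with their own number. With the replicate block in limma-voom the count was 1 (Rnh1, 0.76, FDR 0.0342), and the call of Alkbh5 was lost (-0.12, FDR 0.131); Alkbh3 was not tested there, nor with a filter of 1 CPM in 50% of embryos. With number blocks of 10 within each diet as a random effect Rnh1 had FDR 0.523. The count for the mt-tRNA slope, 1, was 0 without mt-Ts1, in HFD embryos alone and by limma-voom; that for the stage slope, 0, was 1 by limma-voom; that for the macrophage slope, 2, was 1 in HFD embryos alone, with depth covariates, by limma-voom and without the 13 HFD embryos. Calls over all genes by diet, 318, were 7030 without the filter, 796 with the block, 591 with fixed number blocks, 546 without embryos under 15000 genes, 175 without HFD embryos 31 to 70 and 86 with blocks within diets.

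Signs turned for values that were not called in the setting of the report, apart from Rnh1 on the macrophage level; the cause was not tested. By diet, Nsun2 was -0.00096 with the macrophage covariate and -0.0061 without the 13 HFD embryos, and Trmt6 -0.061 without HFD embryos 31 to 70, where its difference in spread was -0.028. On the mt-tRNA level, in HFD embryos alone, Trdmt1 was 0.00072 and Trmt6 0.11; Trmt6 was 0.12 without mt-Ts1, Alkbh1 -0.059 in LFD embryos alone, and Nsun2 0.014 with depth covariates and 0.025 without LFD embryo 26. The mt-tRNA slope difference of Nsun2 was -0.042 without mt-Ts1 and -0.047 by limma-voom. On the stage level, in HFD embryos alone, Trdmt1 was -0.087, Trmt61a 0.47 and Alkbh1 -0.17; Trmt61a was 0.48 by limma-voom and Alkbh1 -0.020 with depth covariates. On the macrophage level in LFD embryos alone, Trmt61a was -0.13, Alkbh1 0.44 (FDR 0.0376), Alkbh3 -0.0037 and Rnh1 -0.022; Rnh1 was -0.20 without the 13 HFD embryos, and Alkbh1 0.023 by limma-voom. Trdmt1 was 0.19 on the cumulus level by limma-voom. The correlation of Trdmt1 with Nsun2 in LFD embryos was -0.051 without embryos under 15000 genes.

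Each embryo was left out in turn from the log2 ratio of mean CPM, which ran from 0.57 to 0.77 for Rnh1, 0.38 to 0.56 for Trmt61a, 0.14 to 0.19 for Alkbh1, 0.09 to 0.15 for Trdmt1, 0.02 to 0.09 for Trmt6, -0.03 to -0.0032 for Nsun2 and -0.41 to -0.25 for Alkbh3. Counts were lowest for Alkbh3, at a median of 6.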
